A study of Mus musculus with 17 samples.

Results

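The 36 genes described here are mouse interferon response genes, taken from a list of gene names of the cell's antiviral programme. All 36 were found among the 55536 gene identifiers of the deposited tables, and all 36 were among the 14393 genes that passed the filter on low counts. They comprise 4 sensors of foreign RNA or DNA, 3 transcription factors, 18 antiviral effectors, 2 genes of ISG15 conjugation, 6 GTPases of the guanylate-binding and immunity-related families, 2 genes of antigen processing and 1 chemokine.

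Interferons are secreted when a cell detects foreign nucleic acid, and they act on neighbouring cells through surface receptors, Janus kinases and STAT proteins. STAT2 and IRF9 are parts of the complex ISGF3, which binds the interferon-stimulated response element (ISRE) in promoters. The induced genes sense, degrade or sequester viral RNA and proteins, and USP18 and the SOCS proteins switch the signal off. In liver the programme is best known from viral infection, and viral vectors can also set it off.

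Hepatocytes were isolated with collagenase from livers of C57BL/6J mice of the genotype ApcDHep, in which hepatocytes lack Apc, the brake on β-catenin signalling. All mice were 3 months old, had received AAV8, a viral vector that reaches hepatocytes, with constructs of the nuclease SaCas9 for 1 month, and had been given tamoxifen (2 mg, 7 days). The constructs edited either a site bound by β-catenin that lies upstream of DLK1/DIO3 (labelled DLK1DWRE, here WRE-edited, 6 libraries) or Rosa26, a commonly used neutral site (labelled ROSA26, here Rosa26-edited, 5 libraries). Run r770 held WRE-edited 1 to 3 and Rosa26-edited 1 to 3, run r595 held WRE-edited 6 and Rosa26-edited 4 and 5, and run r711 held WRE-edited 4 and 5 and no Rosa26-edited library. Apc loss, the vector, the nuclease and tamoxifen were thus common to both groups, and no library without the vector was analysed here, so a response to the vector itself cannot be read from these comparisons. No source used here gives the promoter that drives Cre. Separate animals are not named in the labels, and the spread between libraries on which the p-values rest may be technical. WRE-edited 4 and 6 have the same number in their library names. Rosa26-edited 1 shares its number with a WRE-edited miRNA library that was not analysed here.

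Library totals ranged from 20727036 to 38935135 expected counts, and each of the 36 genes had at least 45 counts in every library. The share of mitochondrial ribosomal RNA was 2.29% to 3.00% in r595 and 19.0% to 29.1% in the other runs. The summed level of 8 hepatocyte markers was between 45382 and 62872 CPM (read counts relative to library size, scaled with TMM factors). The 12 markers of macrophages and Kupffer cells summed to 465 to 627 CPM in the WRE-edited and 419 to 1438 CPM in the Rosa26-edited libraries. Lymphocyte markers summed to 15.3 to 43.4 CPM, neutrophil markers to 4.64 to 21.6 CPM and markers of plasmacytoid dendritic cells, the main makers of type I interferon, to 0.428 to 2.03 CPM. Of these 3 lists, 0 markers were at 0 in every library, and 12 were below the filter. In bulk RNA, fewer cells of a type and less RNA per cell cannot be told apart.

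The ISRE is the element that ISGF3 binds in promoters of interferon response genes, so the stretches that hold it are shown for some of the members. RefSeq promoter windows of GRCm38.p6, from 250 bases before to 50 bases after the transcription start, matched 27 of the 36 genes. The ISRE core GAAANNGAAA was searched on both strands, where it reads TTTCNNTTTC on the other strand. It was found in 17 of the 27 genes (63.0%), against 3.99% of all 27025 genes in the table. The core TTCNNNGAA of the gamma-activated site, another element of interferon-responsive promoters, which can share bases with an ISRE core, was found in 7 of 27 (25.9%), against 9.55% of all genes. In the stretches below, written 5′ to 3′ in the direction of the gene, capitals mark ISRE cores, and cores that overlap are joined. The first 6 are the members with a core and the smallest p in the comparison of the edits, while Ifit3 and Isg15 were added after their values were seen.
Trim30a (chr7:104465190-104465259, minus strand): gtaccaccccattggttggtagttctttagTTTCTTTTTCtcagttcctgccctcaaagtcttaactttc
Gbp7 (chr3:142530253-142530322, plus strand): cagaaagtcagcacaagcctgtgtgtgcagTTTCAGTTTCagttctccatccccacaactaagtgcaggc
Ddx58 (chr4:40239814-40239853, minus strand): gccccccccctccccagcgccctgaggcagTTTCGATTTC
Ifit3b (chr19:34607739-34607842, plus strand): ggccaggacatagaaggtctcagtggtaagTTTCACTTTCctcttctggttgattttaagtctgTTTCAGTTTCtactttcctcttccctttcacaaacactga
Bst2 (chr8:71537557-71537632, minus strand): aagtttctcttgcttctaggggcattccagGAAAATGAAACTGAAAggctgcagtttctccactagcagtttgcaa
Gbp3 (chr3:142559969-142560044, plus strand): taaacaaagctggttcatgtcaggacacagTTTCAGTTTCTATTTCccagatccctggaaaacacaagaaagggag
Ifit3 (chr19:34583343-34583446, plus strand): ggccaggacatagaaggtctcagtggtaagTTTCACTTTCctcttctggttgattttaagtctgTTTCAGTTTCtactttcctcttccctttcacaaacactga
Isg15 (chr4:156200845-156200926, minus strand): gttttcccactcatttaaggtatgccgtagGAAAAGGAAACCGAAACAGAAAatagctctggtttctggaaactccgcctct

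Isg15 held 3 overlapping cores, Bst2 and Gbp3 held 2 overlapping ones, and Ifit3 and Ifit3b held 2 separate ones. Trim30a held a further core in a window at another transcription start, which is not shown. The stretches of Ifit3 and Ifit3b were equal in 104 of 104 bases. These genes are near-identical neighbours on chromosome 19, so the division of reads between them by the authors' counting is uncertain. The windows of Ifit2, Oasl1, Oasl2, Irf7, Irf9, Ifi44, Ifi35, Xaf1, Psmb8 and Tap1 held no ISRE core, which says only that these letters are not in the windows. Dhx58, Zbp1, Oas2, Mx1, Mx2, Parp14, Rtp4, Usp18 and Iigp1 were not matched.

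Per unit of transcript length, the most abundant member was Bst2, which encodes tetherin, a membrane protein that holds budding viruses on the cell surface. It stood at a mean of 309 TPM (the length-corrected unit of the deposited tables) over the 11 libraries, in a range from 213 to 452 TPM. Iigp1, an immunity-related GTPase that attacks the vacuoles of intracellular parasites, followed at 226 TPM (106 to 356), and Usp18, the protease that removes ISG15 and restrains the interferon receptor, at 175 TPM (103 to 260). The GTPase gene Igtp had 96.7 TPM (66.6 to 141) and Ifit3, of a family that binds viral RNA, 84.3 TPM (36.1 to 258). The ranges of neighbours in this order overlap. Oas2, an oligoadenylate synthetase that activates RNase L, was the lowest, at 1.02 TPM (0.440 to 1.98). Mx1 and Mx2, GTPases that block viral replication, had 7.08 and 7.45 TPM; both are listed in the RefSeq table as transcribed pseudogenes, and their alleles in C57BL/6 mice are known to be defective.

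The first comparison asked whether the interferon response genes differed between WRE-edited and Rosa26-edited hepatocytes when the run was a term of the fit. The log2 fold change was negative for 29 of the 36 genes, with a median of -0.22, against 48.3% negative and a median of 0.01 over all genes tested. With edgeR 0 of 36 passed an adjusted p under 0.05, where 0.00695% of all genes were called lower and 0% higher, and the smallest adjusted p of a member was 0.384. At an unadjusted p under 0.05, 7 members were lower (background 5.14%) and 0 higher (background 4.95%). DESeq2 also called 0 members (background 0.477% lower and 0.123% higher in the run-adjusted fit). Its smallest adjusted p were 0.0611 for Ifit2, 0.0842 for Trim30a and 0.0849 for Gbp7. In a fit without the filter on low counts, over 27704 genes, edgeR called 6 members lower, where 1.15% of all genes were, namely Ifit2, Ifit3b, Oasl1, Mx1, Trim30a and Gbp7. Without Rosa26-edited 3 the number lower at an unadjusted p under 0.05 was 4 (background 6.81%) and the median -0.11, and without WRE-edited 6, which leaves r770 alone in the effect, they were 13 (background 2.53%) and -0.36.

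Ifit2 (ENSMUSG00000045932, chromosome 19, 34550550 to 34576534 in GRCm38.p6) encodes an RNA-binding protein that inhibits translation of viral messages. In r770 it stood at 47.3, 28.3 and 46.2 CPM in WRE-edited 1 to 3 and at 59.9, 105.6 and 77.2 CPM in Rosa26-edited 1 to 3. In r595 it was at 49.8 CPM in WRE-edited 6 and 66.3 and 56.3 CPM in Rosa26-edited 4 and 5, and in r711 WRE-edited 4 and 5 had 38.1 and 39.6 CPM. All 6 WRE-edited libraries thus lay below all 5 Rosa26-edited ones, which no other member showed (background 0.222%). The means were 41.5 ± 7.94 CPM (SD, n = 6) and 73.0 ± 19.9 CPM (SD, n = 5), and the log2 fold change was -0.78 ± 0.21 (SE; edgeR adjusted p = 0.384).

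Trim30a (ENSMUSG00000030921, chromosome 7, 104409025 to 104465193) belongs to a family of ubiquitin ligases with several close copies in mouse, and reads that they share cannot be assigned with certainty. It stood at 38.8, 33.5 and 37.7 CPM in WRE-edited 1 to 3 against 49.1, 67.3 and 79.0 CPM in Rosa26-edited 1 to 3. In r595 WRE-edited 6, at 37.1 CPM, lay between Rosa26-edited 5 at 36.1 CPM and Rosa26-edited 4 at 47.1 CPM, and WRE-edited 4 and 5 had 32.9 and 34.0 CPM. The WRE-edited libraries spanned a narrow range, and the Rosa26-edited ones differed more among themselves. The group means were 35.7 ± 2.51 CPM (SD, n = 6) and 55.7 ± 17.1 CPM (SD, n = 5). The log2 fold change was -0.62 ± 0.17 (SE; edgeR adjusted p = 0.384).

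Gbp7 (ENSMUSG00000040253, chromosome 3, 142530336 to 142550151), a guanylate-binding protein of cell-autonomous defence, was at 93.1, 70.7 and 55.2 CPM in WRE-edited 1 to 3 and at 100.4, 93.0 and 126.8 CPM in Rosa26-edited 1 to 3. In r595 it was at 64.5 CPM in WRE-edited 6 and at 134.0 and 91.4 CPM in Rosa26-edited 4 and 5, while WRE-edited 4 and 5 had 78.5 and 74.5 CPM. Only WRE-edited 1 reached into the Rosa26-edited range. The log2 fold change was -0.63 ± 0.18 (SE; edgeR adjusted p = 0.384), with -0.55 within r770 and -0.81 within r595.

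Iigp1 (ENSMUSG00000054072) had 933.5, 736 and 507 CPM in WRE-edited 1 to 3 and 1061, 962 and 1024 CPM in Rosa26-edited 1 to 3. WRE-edited 6 had 731 CPM against 1083 and 882 CPM in Rosa26-edited 4 and 5, and WRE-edited 4 and 5 had 763 and 641 CPM. Within r770 and within r595 the groups did not overlap, which among the members was otherwise seen for Ifit2 with WRE-edited lower in both runs (2 of 36, background 2.43%). Ifih1 and Usp18 also did not overlap in either run, but with WRE-edited lower in r770 and higher in r595 (2 of 36, background 0.827%). Over the 11 libraries WRE-edited 1 lay above Rosa26-edited 5. The log2 fold change was -0.47 ± 0.17 (SE; edgeR adjusted p = 0.441).

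The other members at an unadjusted p under 0.05 were Mx1, Oas2 and Oasl1, a synthetase-like gene that dampens Irf7 translation. Mx1 had 16.9, 12.7 and 16.3 CPM in WRE-edited 1 to 3 against 15.9, 24.6 and 38.7 CPM in Rosa26-edited 1 to 3, and the r770 groups overlapped. Its log2 fold change was -0.66 ± 0.23, that of Oas2 -0.58 ± 0.25 and that of Oasl1 -0.60 ± 0.26 (SE; edgeR adjusted p = 0.441, 0.469 and 0.469). Rosa26-edited 3 held the highest level of Mx1 and Oasl1 among the 11 libraries, and without that library they had -0.39 and -0.30.

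**Figure D1:**
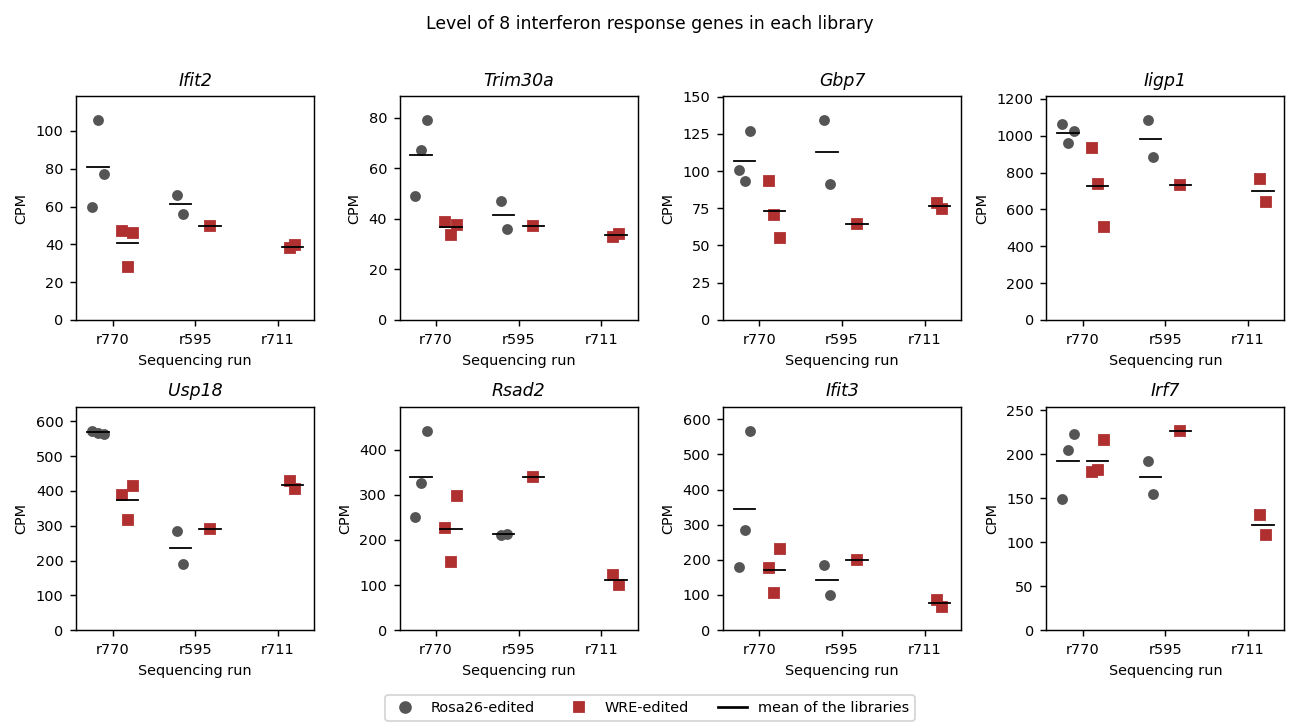
Level of 8 interferon response genes in CPM (vertical axes, from 0) in each library by sequencing run, with Rosa26-edited libraries as grey circles, WRE-edited libraries as red squares and a line at the mean of the libraries of a run and group. Ifit2 was at 28.3 to 49.8 CPM in the WRE-edited and 56.3 to 105.6 CPM in the Rosa26-edited libraries, while Rsad2 and Usp18 differ in direction between r770 and r595.

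By role, the values differed. The 18 antiviral effectors had a median log2 fold change of -0.31, with 15 negative. The 6 GTPases had -0.24, with 5 negative, and the 4 sensors -0.10, with 3 negative. The 3 transcription factors had a median of 0.12. Irf7, which amplifies interferon production, had 0.12 ± 0.15, and Irf9, the DNA-binding part of ISGF3, had 0.16 ± 0.14. Stat2 had -0.11 ± 0.17 (SE; edgeR adjusted p = 0.779, 0.684 and 0.823). Among antigen processing genes the immunoproteasome subunit Psmb8 had -0.13 ± 0.16 and the peptide transporter Tap1 -0.14 ± 0.15, and the chemokine Cxcl10 had -0.24 ± 0.20.

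Markers of other liver cells were read in the same fit. All 12 macrophage and Kupffer cell markers had negative run-adjusted fold changes with a median of -0.41, and 0 of them passed with edgeR or stood at an unadjusted p under 0.05. The median was -0.53 for 7 stellate cell and fibroblast markers, -0.88 for 4 neutrophil markers and -0.22 for 6 sinusoidal endothelial markers, all negative, with 1 stellate marker at an unadjusted p under 0.05 and 0 called by edgeR. Other lists were mixed. Of 8 hepatocyte markers 5 were negative and 3 positive (median -0.08), and of 4 lymphocyte markers 3 and 1 (median -0.51). Of 2 cholangiocyte markers 1 was negative and 1 positive, and the 1 plasmacytoid dendritic cell marker tested had 0.15. The hepatocyte marker Hnf4a (0.32 ± 0.13) and the cholangiocyte marker Sox9 (0.92 ± 0.34) were higher at an unadjusted p under 0.05. In these mixed lists 0 markers were called by edgeR. Summed macrophage markers were highest in Rosa26-edited 5 (1438 CPM), where the 36 interferon response genes summed to 3522 CPM. The marker Marco alone had 370 CPM in that library, against 11.2 to 32.9 CPM in the others. Rosa26-edited 2 came second in both sums, with 1042 CPM of macrophage markers and 5381 CPM of interferon response genes. Rosa26-edited 3 had the highest sum of interferon response genes (6494 CPM) and the lowest of macrophage markers (419 CPM). Stellate cell and fibroblast markers summed to 23.6 to 62.3 CPM in the WRE-edited and 29.1 to 77.7 CPM in the Rosa26-edited libraries, and sinusoidal endothelial markers to 88.6 to 142 CPM and 90.8 to 147 CPM. The part of these cells in the differences was not tested.

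**Figure D2:**
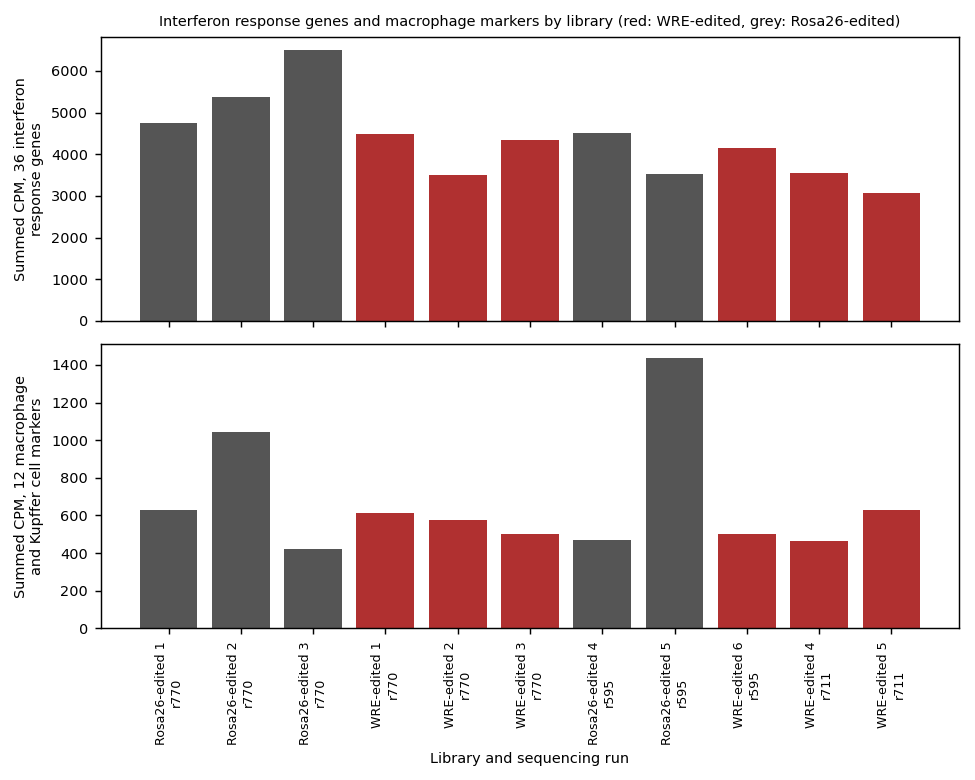
Summed CPM of the 36 interferon response genes (upper panel) and of 12 macrophage and Kupffer cell markers (lower panel) in each of the 11 libraries, with WRE-edited libraries in red and Rosa26-edited libraries in grey. Rosa26-edited 3 has the highest upper bar (6494 CPM) and the lowest lower bar (419 CPM), Rosa26-edited 2 is second in both panels (5381 and 1042 CPM), and Rosa26-edited 5 has the highest lower bar (1438 CPM). In Rosa26-edited 5 the marker Marco alone gives 370 CPM.

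Within run r770, which held 3 libraries of each group, 33 of the 36 genes had negative fold changes; the median was -0.36 against 0.00 over all genes. The values ranged from -1.11 for Ifit3b to 0.10 for Oas1a. With edgeR 0 members passed, as did 0% of all genes in either direction, and 13 were lower at an unadjusted p under 0.05 (background 2.49%) with 0 higher (background 1.73%). The libraries of the edits did not overlap for 7 members, all lower in WRE-edited (background 4.34%). These were the RNA sensors Ddx58 and Ifih1, Ifit2, Bst2, Trim30a, Usp18 and Iigp1, and 0 members were higher without overlap (background 3.29%). The number at an unadjusted p under 0.05 was 3 without WRE-edited 2 (background 1.95%), 5 without Rosa26-edited 3 (background 4.46%) and 15 without Rosa26-edited 1 (background 1.43%), and the median was -0.25, -0.19 and -0.46. DESeq2 called 0 members (background 0.0278% lower and 0.00695% higher). Without the filter edgeR called 7 members lower (background 0.462%) and 0 higher (background 0.166%). The fold changes of the members hardly differed from those with the filter (Ifit3b -1.11 in both). Of the 7, Ifit1, Ifit3, Ifit3b, Oasl1 and Mx1 had overlapping groups in r770.

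Within r595, where 1 WRE-edited library faced 2 Rosa26-edited ones, 17 members were negative and 19 positive, with a median of 0.06 (0.02 over all genes). The spread of the lone WRE-edited library is there assumed to be that of the other groups. With edgeR 0 members passed (background 0.0139% lower, 0% higher). At an unadjusted p under 0.05, Gbp7 was lower (background 8.16%) and Dhx58, a regulator of the RNA sensors, was higher at 0.92 ± 0.34 (background 7.11%; edgeR adjusted p = 0.264). WRE-edited 6 lay below both Rosa26-edited libraries in 10 members (background 34.4%) and above both in 13 (background 40.4%). DESeq2 called 0 members (background 0.792% lower and 0.222% higher), and without the filter edgeR called Dhx58 higher (background 0.502%) and 0 members lower (background 2.09%). The median was 0.37 without Rosa26-edited 4 and -0.04 without Rosa26-edited 5.

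**Figure D3:**
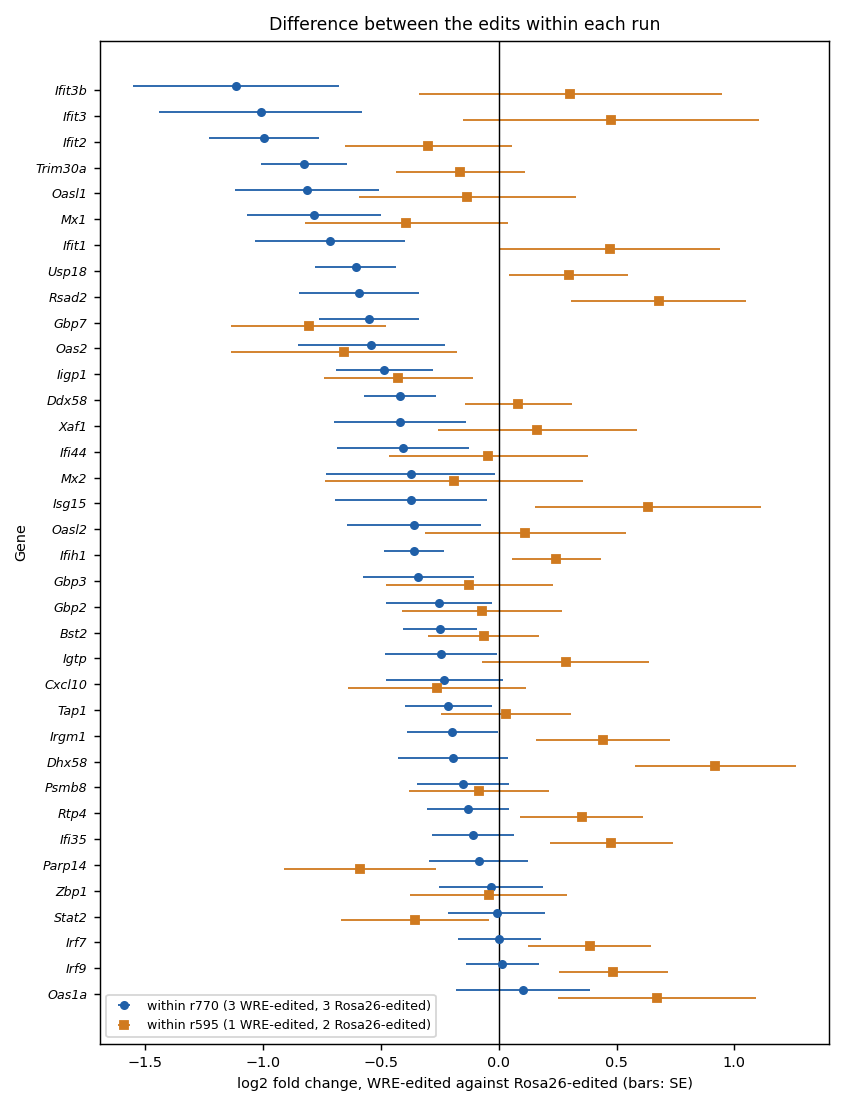
Log2 fold change of each of the 36 genes, WRE-edited against Rosa26-edited (horizontal axis, bars are standard errors), within r770 (blue circles, 3 and 3 libraries) and within r595 (orange squares, 1 and 2 libraries), ordered by the r770 value. In r770, 33 genes lie left of 0 and the values reach from -1.11 to 0.10, and in r595 17 lie left of 0 and 19 right of it.

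The runs were then set against each other. Of the members, 17 were lower in both runs (background 29.6%) and 16 were lower in r770 and higher in r595 (background 20.1%). Irf9, Irf7 and Oas1a were higher in both (background 4525 of 14393 genes). The difference between the effects, r595 minus r770, had a median of 0.48 (0.02 over all genes). It was positive in 30 of 36 and negative in 6 (background 48.3% negative). With edgeR 0 members passed in this test, as did 0% of all genes in either direction. At an unadjusted p under 0.05, 4 members had a higher effect in r595 (background 2.85%) and 0 a lower one (background 4.76%). DESeq2 called 0 members (background 0.0625% lower and 0.0139% higher). The 4 became 1 without Rosa26-edited 5 (background 2.88%) and 11 without Rosa26-edited 1 (background 2.57%).

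Usp18 (ENSMUSG00000030107, chromosome 6, 121245906 to 121270917) had the smallest p for the difference between runs. In r770 it was at 388, 317 and 415 CPM in WRE-edited 1 to 3 and at 574, 567 and 565 CPM in Rosa26-edited 1 to 3. In r595 it was at 291 CPM in WRE-edited 6 and at 285 and 189 CPM in Rosa26-edited 4 and 5. The Rosa26-edited libraries of r770 lay close together and above all others. The log2 fold change was -0.61 ± 0.17 within r770 and 0.30 ± 0.25 within r595, a difference of 0.90 ± 0.30 (SE; edgeR adjusted p = 0.558).

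Rsad2 encodes viperin, an enzyme that makes a chain-terminating nucleotide. In r770 it was at 225, 152 and 298 CPM in WRE-edited 1 to 3 and 250.2, 325 and 442 CPM in Rosa26-edited 1 to 3, where the groups overlapped. In r595 WRE-edited 6 had 339.6 CPM, above the 211 and 213 CPM of Rosa26-edited 4 and 5. The difference between the runs was 1.27 ± 0.45 (SE; edgeR adjusted p = 0.567). It was 1.11 ± 0.42 for Dhx58 and 0.60 ± 0.23 for Ifih1, which encodes the long double-stranded RNA sensor MDA5 (edgeR adjusted p = 0.590 for both), and 1.19 ± 0.56 for Ifit1 (edgeR adjusted p = 0.649).

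Across the 11 libraries, all of which carry the vector, the spread of the members was described by the residual standard deviation of log2 CPM around the means of run and group. Differences between runs and groups are thus taken out, and WRE-edited 6, alone in its run and group, adds nothing to it. This standard deviation had a median of 0.34 over the members and 0.29 over all genes. Of 36 members, 21 were above the overall median, near the share of all genes above it. The members and all genes were not matched for abundance here. The widest were Ifit3b and Ifit3 (both 0.65), Mx2 (0.55), Isg15 (0.50) and Ifit1 (0.49). ISG15 is a ubiquitin-like protein that is attached to other proteins. The narrowest was Ifih1 (0.10), at the 2.10 percentile of all genes, and the sensor gene Ddx58, which encodes RIG-I, had 0.17.

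Ifit3, the second widest and the more abundant of the pair with Ifit3b, was at 177.5, 104 and 229.6 CPM in WRE-edited 1 to 3 and 178.5, 284 and 568 CPM in Rosa26-edited 1 to 3. WRE-edited 6 had 198 CPM against 184 and 101 CPM in Rosa26-edited 4 and 5, and WRE-edited 4 and 5 had 84.4 and 67.2 CPM. The highest library was thus 8.45 times the lowest, and Rosa26-edited 3 stood apart from the others of its group. The r770 log2 fold change of -1.01 ± 0.43 was -0.43 without Rosa26-edited 3. Ifit3b, with which it may share reads, ranged 9.09-fold, and Ifih1 1.47-fold.

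The libraries at the ends were often the same. Rosa26-edited 3 was the highest of the 11 in 21 members and the highest of the 6 in r770 in 27. WRE-edited 2 was the lowest of r770 in 23, WRE-edited 5 the lowest of all 11 in 14, and Rosa26-edited 5 the lowest of the 3 in r595 in 23. Such counts were made for the members alone. Whether these libraries stand at the ends as often over all genes was not tested. The mean log2 CPM over the members was 6.13, 5.83 and 6.23 in WRE-edited 1 to 3 and 6.13, 6.44 and 6.74 in Rosa26-edited 1 to 3. In r595 it was 6.15 in WRE-edited 6 and 6.23 and 5.86 in Rosa26-edited 4 and 5, and in r711 it was 5.72 and 5.56. WRE-edited 1 and Rosa26-edited 1 were both at 6.13 and WRE-edited 3 lay above them, so by this measure the groups of r770 overlapped.

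The Rosa26-edited libraries of the runs were also set side by side. In 12 of the 36 members Rosa26-edited 4 and 5 of r595 both lay below Rosa26-edited 1 to 3 of r770 (background 22.7%). Usp18 had a mean of 237 CPM in the Rosa26-edited libraries of r595 against 569 CPM in those of r770, and Irgm1, an immunity-related GTPase, 141 against 288 CPM. Stat2 was the single member with both r595 libraries above the r770 ones (background 19.7%), at 66.1 against 33.1 CPM; it was chosen after its values were seen. Mitochondrial ribosomal RNA also separated r595 from the other runs, and its part in these levels was not tested.

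**Figure D4:**
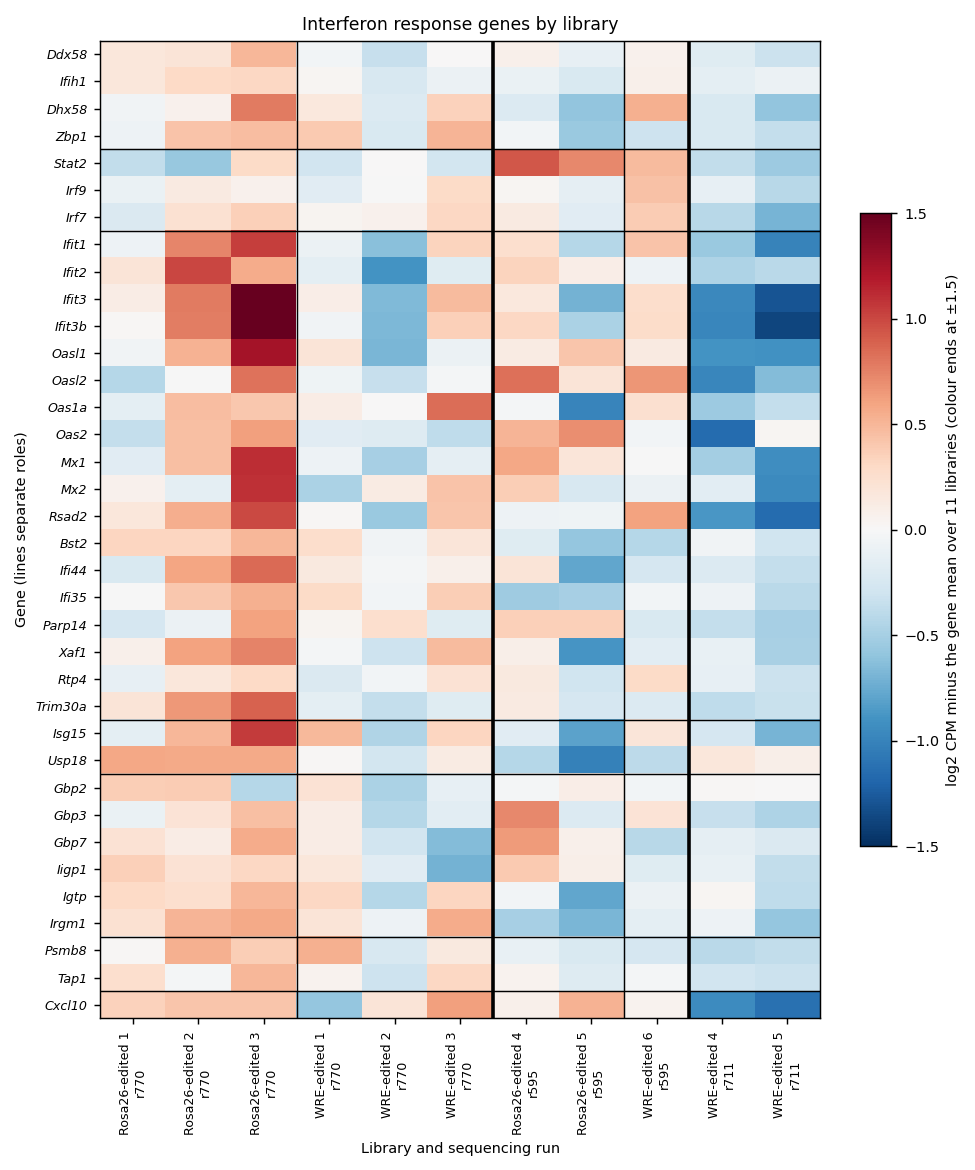
Log2 CPM of each of the 36 genes (rows, with lines between roles) in each of the 11 libraries (columns, thick lines between runs and thin lines between groups), as the difference from the gene's mean over all libraries, from blue (lower) to red (higher). The column of Rosa26-edited 3 is the reddest, with 21 genes at their highest, and that of WRE-edited 5 holds 14 genes at their lowest. The same counts over all genes were not made.

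The other genes of the pathway were read from a list of 85, of which 75 passed the filter. Their median run-adjusted log2 fold change was -0.03, with 43 negative, and with edgeR 0 passed. At an unadjusted p under 0.05, 7 were lower (background 5.14%) and 2 higher (background 4.95%). Of the 7, 6 were among the 30 further interferon-stimulated genes described below. Of 10 interferon genes, 9 were below the filter. Ifnb1, the first interferon made after sensing, had 9 counts in all WRE-edited and 21 in all Rosa26-edited libraries, and Ifng had 3 and 10. Ifna1, Ifna5, Ifne and Ifnl2 had 0 counts, which allows up to 0.00964 CPM over all libraries (3 counts). Such levels leave a difference in the ligands not detectable at this depth, and these limits cover counting error only. Ifnk passed the filter with 97 counts and had -0.07 ± 0.60 (edgeR adjusted p = 0.973).

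Of 8 receptors and Janus kinases tested, 7 were positive, with a median of 0.05. The kinase gene Tyk2 had 0.26 ± 0.12 and the interferon gamma receptor chain Ifngr2 had 0.21 ± 0.15. Among 7 signal transducers and interferon regulatory factors, Stat3 had 0.33 ± 0.14, Irf5 -0.19 ± 0.20 and Irf1 0.10 ± 0.16. Of 12 sensing adaptors and kinases 7 were negative. The endosomal double-stranded RNA receptor Tlr3 had -0.39 ± 0.14 and the adaptor Ticam1 0.41 ± 0.21. Tlr9, the receptor for unmethylated DNA, had 219 counts in all libraries and -0.59 ± 0.62. Of 6 negative regulators, Socs1 had 0.44 ± 0.46 and Ptpn6 -0.14 ± 0.16. None of these passed with edgeR (adjusted p from 0.441 to 0.831 for those named).

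Of 30 further interferon-stimulated genes 22 were negative, with a median of -0.15 run-adjusted, -0.27 within r770 and 0.09 within r595. Gbp4, a guanylate-binding protein gene, had the smallest p of the pathway at -0.72 ± 0.16 (SE; edgeR adjusted p = 0.262), with -0.71 within r770 and -0.76 within r595. Herc6, the mouse ligase for ISG15, had -0.45 ± 0.13 (edgeR adjusted p = 0.384). The 11 genes of MHC class I and the immunoproteasome had a median of -0.06, with Nlrc5, the transactivator of MHC class I genes, at -0.25 ± 0.20 and the transporter Tap2 at -0.16 ± 0.13.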

How the data were processed

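RNA-seq of 11 libraries was used. Expected counts and TPM per Ensembl gene were deposited by the authors, 1 table per library. The submitters' processing notes name STAR 2.7.6a, RSEM 1.3.1 and the build GRCm38. For the annotation version and the strand setting, no source used here gives a value, so overlapping and antisense genes cannot be told apart. A deposited normalized matrix and the miRNA libraries (3 and 3) were not used here.

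Expected counts were rounded, and 55450 of 55536 identifiers matched the gene name table. In R 4.3.3 with edgeR 4.0.16, filterByExpr by group (minimum count 10, minimum total 15) left 14393 genes, scaled with TMM factors. A robust quasi-likelihood test (two-sided, Benjamini-Hochberg over all genes tested, threshold 0.05) was fitted with run and group (7 residual degrees of freedom), and with 1 mean per run and group (6) for the effects within r770 and r595 and their difference. In the first fit the r711 libraries inform the spread alone. The standard errors given are the absolute log2 fold change divided by the square root of the F statistic of the test. DESeq2 1.42.0, RLE factors, no filter, no run term, a replicate block, r770 fitted alone, WRE-edited 4 and 6 summed, no r711 and leaving out each library were the alternatives. Pairs of replicates differed beyond sampling noise. Promoters and coordinates came from RefSeq tables of GRCm38.p6, 1-based. The coordinates of 1 member are not reported here.

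The members and lists were chosen with earlier results of these data known. Members named are the 8 with the smallest run-adjusted p, the 5 with the smallest p for the difference between runs, the 5 highest by mean TPM, the 5 with the largest spread and at least 1 of each role; pathway genes are the 2 of each role with the smallest p, and Irf1 and Tlr9. A gene that this rule takes is not reported here. Others are named where a count is spelled out or for contrast, after their values were seen. Counts were also simulated over 14168 genes, without differences between runs and with changes placed only in genes with higher counts. The shares recovered may thus be above those in these data. On these counts the run-adjusted fit recovered 8.96%, 73.1% and 93.9% of genes changed by 0.5, 1 and 2 on the log2 scale, with 7 false calls. Within r770 the shares were 2.99%, 55.2% and 87.9%, and within r595 they were 0%, 7.46% and 62.1%.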

Additional observations from a re-analysis of the deposited data

Results flagged for a closer look

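Oas2 had 1 library far below the others in each group. WRE-edited 4 stood at 2.14 CPM, with the nearest of the other WRE-edited libraries at 3.72 CPM. Rosa26-edited 1 stood at 3.78 CPM, with the nearest of the other Rosa26-edited libraries at 6.62 CPM. These were 2 of 72 groups of libraries tested over the 36 genes, and chance marks about 1 in 20. Oas2 was the least abundant member by TPM.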

How the results depend on the processing

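RLE factors, DESeq2, r770 fitted alone, no run term and no r711 libraries kept 0 members called and the sign of each median they were run for. Without the filter on low counts edgeR called 6 members in the run-adjusted fit, 7 within r770 (Ifit1, Ifit2, Ifit3, Ifit3b, Oasl1, Mx1 and Trim30a, where 0.462% of all genes were called lower) and 1 within r595 (Dhx58, where 0.502% were called higher), with 2 lower and 4 higher there at an unadjusted p under 0.05 (8.41% and 4.64% of all genes). The cause was not tested. With WRE-edited 4 and 6, which share a number, summed and no run term, 11 members were lower at an unadjusted p under 0.05 (2.71% of all genes in that fit). Leaving out 1 library at a time, 0 members were called in any comparison. The members lower at an unadjusted p under 0.05 numbered 4 to 13 run-adjusted, 3 to 15 within r770, 0 to 1 within r595 and 0 to 2 for the difference between runs, and those higher 0 to 3 within r595 and 1 to 11 for the difference. The medians were -0.36 to -0.11, -0.46 to -0.19, -0.040 to 0.37 and 0.21 to 0.63 in the same order. The negative members numbered 22 to 33, 26 to 36, 11 to 22 and 4 to 11. A limit of at least 10 counts in every library removed no member, so it could not change their median spread of 0.34. The depth left 9 of 10 interferon ligands below the filter.

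Replicate numbers shared between the groups were not taken as pairs in the main fits. Same-numbered libraries of r770 deviated from their group means with correlations of 0.10, -0.23 and -0.10. The others had correlations from -0.11 to 0.20. With 3 libraries per group these values cannot exclude pairing. With a replicate block 13 members were lower at an unadjusted p under 0.05 beside the run term (2.88% of all genes; median -0.33, 3 residual degrees of freedom) and 8 in r770 alone (1.83% of all genes; median -0.32), and 0 were called.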

Other observations

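WRE-edited 4 and 6 carry the same number in their library names and came from r711 and r595. Of the 36 members, 26 were higher in WRE-edited 6, with a median log2 difference of 0.32, against 49.0% of all genes and a median of -0.02. No source used here says whether these libraries come from the same animal. The number of Rosa26-edited 1 also stands on a WRE-edited miRNA library, and no source used here explains this.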
